A study of Mus musculus with 12 samples.

Results

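Reactive astrocyte genes are genes that astrocytes raise after injury or inflammation, and acute-phase genes encode secreted proteins that rise with inflammatory cytokines. The list held 34 genes, given by name and put together with earlier results of these data known: 11 pan-reactive genes, raised by astrocytes after several kinds of injury, 6 genes of the class called A1 (tied to inflammation), 10 of the class called A2 (tied to ischaemia) and 7 acute-phase genes or genes of the STAT3 pathway. All 34 were among the 54356 genes counted, and 30 had enough reads to be among the 14607 genes tested. Fkbp5, Ptx3, Ptgs2 and Slc10a6 were not tested.

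The genes were measured by RNA sequencing in 12 libraries from C57BL/6 mouse astrocyte cultures, which formed 6 groups of 2. The midbrain groups were shPTB at 2 weeks, shPTB at 4 weeks and mock, and the cortex groups were the same 3 states. An shPTB culture was given a short hairpin RNA against PTB, the splicing repressor encoded by Ptbp1, and then grew for 2 or 4 weeks in a medium for neuronal differentiation. A mock culture was held in growth medium, so the effects of the hairpin and of the medium cannot be told apart. The labels give no week for the mock cultures, so an effect of time in culture cannot be told apart from these either. Nothing in the labels says that replicates came from separate cultures or animals, and p-values therefore measure the spread between these libraries, which may be technical.

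Levels are in CPM, a gene's share of the reads of its library on a common scale. Library sizes were first scaled by TMM, which assumes that most genes do not change. Each change is a log2 fold change with its standard error, estimated with edgeR's quasi-likelihood test, and a gene is said to have risen or fallen where its p, adjusted over all tested genes, was under 0.05. The labels' protocol captures cDNA by its first primer and levels are not corrected for gene length, so they are compared between groups and not between genes. Libraries held 6022098 to 11385761 reads, and where a library had no read of a gene, counting error alone leaves room for 3 reads (0.163 to 0.577 CPM). Ptbp1 had 90.8 to 169 CPM in midbrain shPTB against 208 and 250 CPM in midbrain mock, and 73.0 to 90.5 CPM in cortex shPTB against 173 and 251 CPM in cortex mock. It fell in 3 of the 4 shPTB groups and was not called in midbrain at 4 weeks (-0.50 ± 0.20, adjusted p = 0.0744). Replicates differed by more than 2-fold in 0.106 to 0.282% of 5679 well-counted genes within shPTB groups, against 10.6% within midbrain mock and 14.7% within cortex mock, so the mock libraries stand apart from each other. The 15 astrocyte markers summed to between 13818 and 21187 CPM in shPTB libraries and between 13763 and 25778 CPM in mock libraries. Single astrocyte markers went both ways: 5 rose and 2 fell in midbrain at 2 weeks, and 6 and 4 at 4 weeks. In cortex 6 rose and 3 fell at 2 weeks, and 6 and 5 at 4 weeks. The 10 neuronal markers summed to between 76.6 and 163 CPM in shPTB libraries, against between 146 and 253 CPM in mock libraries, so their sum was no higher in the cultures that the submitters describe as converted to neurons. Single neuronal markers went both ways: of 9 tested, 2 rose and 3 fell in midbrain at 2 weeks, 2 and 5 in midbrain at 4 weeks, 4 and 3 in cortex at 2 weeks, and 1 and 3 in cortex at 4 weeks.

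Many of the listed genes answer to cytokines of the interleukin-6 family, such as CNTF, LIF, oncostatin M and CLCF1. These bind receptors that share the subunit gp130, encoded by Il6st, and act through JAK kinases on the transcription factor STAT3. STAT3 raises Socs3, which encodes a feedback inhibitor of the same receptors, and Cebpd, which encodes a C/EBP factor known for its part in the acute-phase response. Interleukin-1, tumour necrosis factor and NF-kB act on several of the same genes, Lcn2 and C3 among them. In brain, reactive astrocytes are known to secrete lipocalin 2, complement C3 and the protease inhibitor encoded by Serpina3n.

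The promoters of 5 members on which the comparisons below turn are shown to make these inputs visible, each from 250 bases before to 50 bases after the transcript start (RefSeq, GRCm38.p6). They lie at chr2:32387690-32387989, minus strand for Lcn2, chr17:57228087-57228386, minus strand for C3, chr5:7960222-7960521, plus strand for Steap4, chr12:104406458-104406757, plus strand for Serpina3n, and chr6:78468825-78469124, minus strand for Reg3g. Capitals mark the letters TTCNNNGAA, a STAT-type motif, and TTGCNNAA, a C/EBP-type motif, on either strand.
Lcn2: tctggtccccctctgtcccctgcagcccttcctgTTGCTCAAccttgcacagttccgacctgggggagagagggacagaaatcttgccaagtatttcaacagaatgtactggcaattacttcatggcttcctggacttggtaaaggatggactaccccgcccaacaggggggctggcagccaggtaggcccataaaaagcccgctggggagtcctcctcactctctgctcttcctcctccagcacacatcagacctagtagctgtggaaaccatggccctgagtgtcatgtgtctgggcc
C3: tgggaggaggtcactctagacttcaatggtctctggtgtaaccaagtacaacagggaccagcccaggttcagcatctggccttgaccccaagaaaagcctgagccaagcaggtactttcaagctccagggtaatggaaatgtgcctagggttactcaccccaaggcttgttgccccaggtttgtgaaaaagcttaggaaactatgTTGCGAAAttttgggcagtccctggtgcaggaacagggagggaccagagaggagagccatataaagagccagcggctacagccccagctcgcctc
Steap4: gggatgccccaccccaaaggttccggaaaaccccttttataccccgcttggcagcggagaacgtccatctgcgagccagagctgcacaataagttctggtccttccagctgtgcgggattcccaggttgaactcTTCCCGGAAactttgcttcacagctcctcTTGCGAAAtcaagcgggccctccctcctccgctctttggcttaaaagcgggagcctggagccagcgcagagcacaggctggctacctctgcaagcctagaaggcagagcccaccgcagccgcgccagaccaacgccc
Serpina3n: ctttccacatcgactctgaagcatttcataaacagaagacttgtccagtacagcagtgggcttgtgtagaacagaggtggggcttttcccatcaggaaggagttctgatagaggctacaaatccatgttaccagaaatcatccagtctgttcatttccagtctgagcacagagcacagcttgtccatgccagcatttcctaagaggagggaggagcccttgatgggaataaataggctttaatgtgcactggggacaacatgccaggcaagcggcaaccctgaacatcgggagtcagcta
Reg3g: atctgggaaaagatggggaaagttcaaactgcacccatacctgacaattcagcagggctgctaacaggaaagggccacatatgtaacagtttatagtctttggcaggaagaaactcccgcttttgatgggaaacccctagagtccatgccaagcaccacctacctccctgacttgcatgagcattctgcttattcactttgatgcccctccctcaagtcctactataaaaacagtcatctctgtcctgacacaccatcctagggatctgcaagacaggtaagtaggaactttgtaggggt
Lcn2 and C3 each held 1 C/EBP-type match, at -216 and -45 from the start, and Steap4 held 1 STAT-type match at -116 and 1 C/EBP-type match at -87, with no overlap between them. Serpina3n and Reg3g held neither in this window. Of the 34 members, 30 had a promoter in the table, and Clcf1, Cd109, Serping1 and C4b did not. With both strands searched, 5 of those 30 held the STAT-type letters (16.7%, against 9.55% of 27025 genes) and 9 held the C/EBP-type letters (30.0%, against 12.2% of genes). A match is a run of letters and not a measured binding site.

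Of the 30 tested members, 7 rose in all 4 comparisons with mock, 6 fell in all 4, 5 were called in none, and the others were called in some of them, as the map of changes shows. In midbrain, 10 of 30 tested members rose and 7 fell at 2 weeks, where 30.6% of all tested genes were called (15.9% higher, 14.7% lower), and 10 rose and 8 fell at 4 weeks, where 39.2% of all genes were called (18.7% higher, 20.4% lower). In cortex, 9 rose and 10 fell at 2 weeks (35.0% of all genes called, 17.5% higher and 17.6% lower), and 7 rose and 18 fell at 4 weeks (39.4% of all genes called, 18.5% higher and 20.9% lower). Called members thus numbered 17 and 18 of 30 in midbrain and 19 and 25 of 30 in cortex, in each case a larger share than among all tested genes. The median change of the tested members was 0.00 at 2 weeks and 0.12 at 4 weeks in midbrain, where all tested genes had medians of -0.07 and -0.15. In cortex it was -0.39 at 2 weeks and -1.83 at 4 weeks, beside -0.11 and -0.12 over all genes. Without both mock libraries numbered 1, members that rose and fell numbered 12 and 11, then 12 and 10, in midbrain and 11 and 11, then 8 and 17, in cortex, at 2 and then 4 weeks. Without both numbered 2 they numbered 13 and 11, then 11 and 13, in midbrain and 12 and 13, then 8 and 19, in cortex. The comparisons at 2 and 4 weeks in a region share their mock libraries. In such bulk samples fewer cells of a type and less RNA per cell cannot be told apart.

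**Figure D1:**
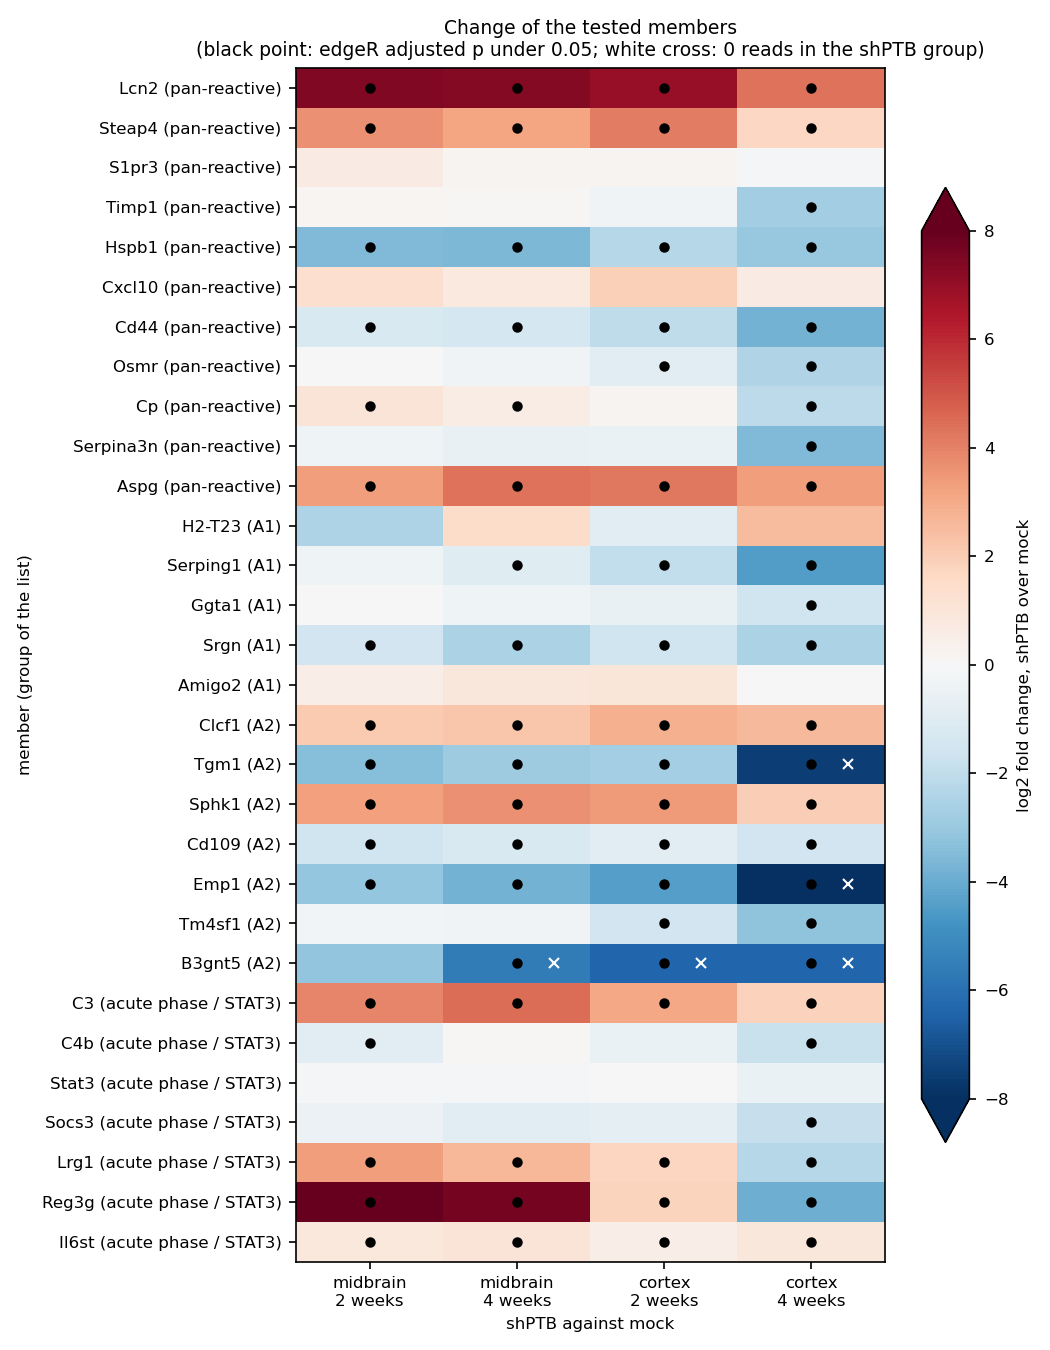
Log2 fold change of the 30 tested members, down the page with their class, in the shPTB groups against mock of the same region, across the page, in colour from -8 to 8. Black points mark edgeR adjusted p under 0.05, white crosses mark groups with 0 reads, where the fitted value is no bound, and the cortex column at 4 weeks has 18 members that fell.

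Scaling weighs on these splits. When libraries were scaled to total reads in place of TMM, the median of all tested genes moved to -0.74 and -1.01 in midbrain and to -0.85 and -1.21 in cortex at 2 and 4 weeks. The share of calls that were higher moved from 51.8 and 47.8% to 17.1 and 13.1% in midbrain and from 49.8 and 47.0% to 16.5 and 9.28% in cortex. The members that rose and fell then numbered 8 and 12 in midbrain at 2 weeks, 8 and 14 in midbrain at 4 weeks, 8 and 16 in cortex at 2 weeks, and 5 and 20 in cortex at 4 weeks. Mitochondrially encoded RNA took 36.4 to 38.3% of reads in midbrain shPTB against 16.9 and 18.3% in midbrain mock, and 37.8 to 48.3% in cortex shPTB against 18.9 and 22.7% in cortex mock. With mitochondrially encoded genes left out before scaling and testing, called members numbered 17 and 17 in midbrain and 18 and 24 in cortex at 2 and 4 weeks.

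Lcn2, which encodes the iron-siderophore carrier lipocalin 2 (chromosome 2, 32384633 to 32388252, minus strand, GRCm38), had the largest rise of all tested members in cortex at both times. It had 3457 and 3400 CPM in midbrain shPTB at 2 weeks and 3430 and 3303 CPM at 4 weeks, against 23.5 and 17.5 CPM in midbrain mock. In cortex it had 4591 and 4884 CPM in shPTB at 2 weeks and 789 and 750 CPM at 4 weeks, against 37.4 and 39 CPM in mock. All 8 shPTB libraries thus stood far above all 4 mock libraries, and the cortex libraries at 4 weeks lay below the other shPTB groups. The changes were 7.38 ± 0.27 and 7.36 ± 0.27 in midbrain and 6.95 ± 0.26 and 4.33 ± 0.23 in cortex at 2 and 4 weeks, with adjusted p between 9.01e-08 and 5.17e-07.

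C3, the central component of complement and a gene often used to mark A1-type astrocytes (chromosome 17, 57203970 to 57228136, minus strand), followed the same outline. It had 1975 and 1917 CPM in midbrain shPTB at 2 weeks and 2880 and 2913 CPM at 4 weeks, against 106 and 154 CPM in midbrain mock. It had 2907 and 2876 CPM in cortex shPTB at 2 weeks and 1204 and 1236 CPM at 4 weeks, against 268 and 404 CPM in cortex mock. No shPTB library overlapped a mock library. The change was 3.90 ± 0.28 and 4.48 ± 0.28 in midbrain (adjusted p = 2.95e-06 and 1.11e-06) and 3.11 ± 0.27 and 1.86 ± 0.25 in cortex (adjusted p = 1.15e-05 and 0.000209).

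**Figure D2:**
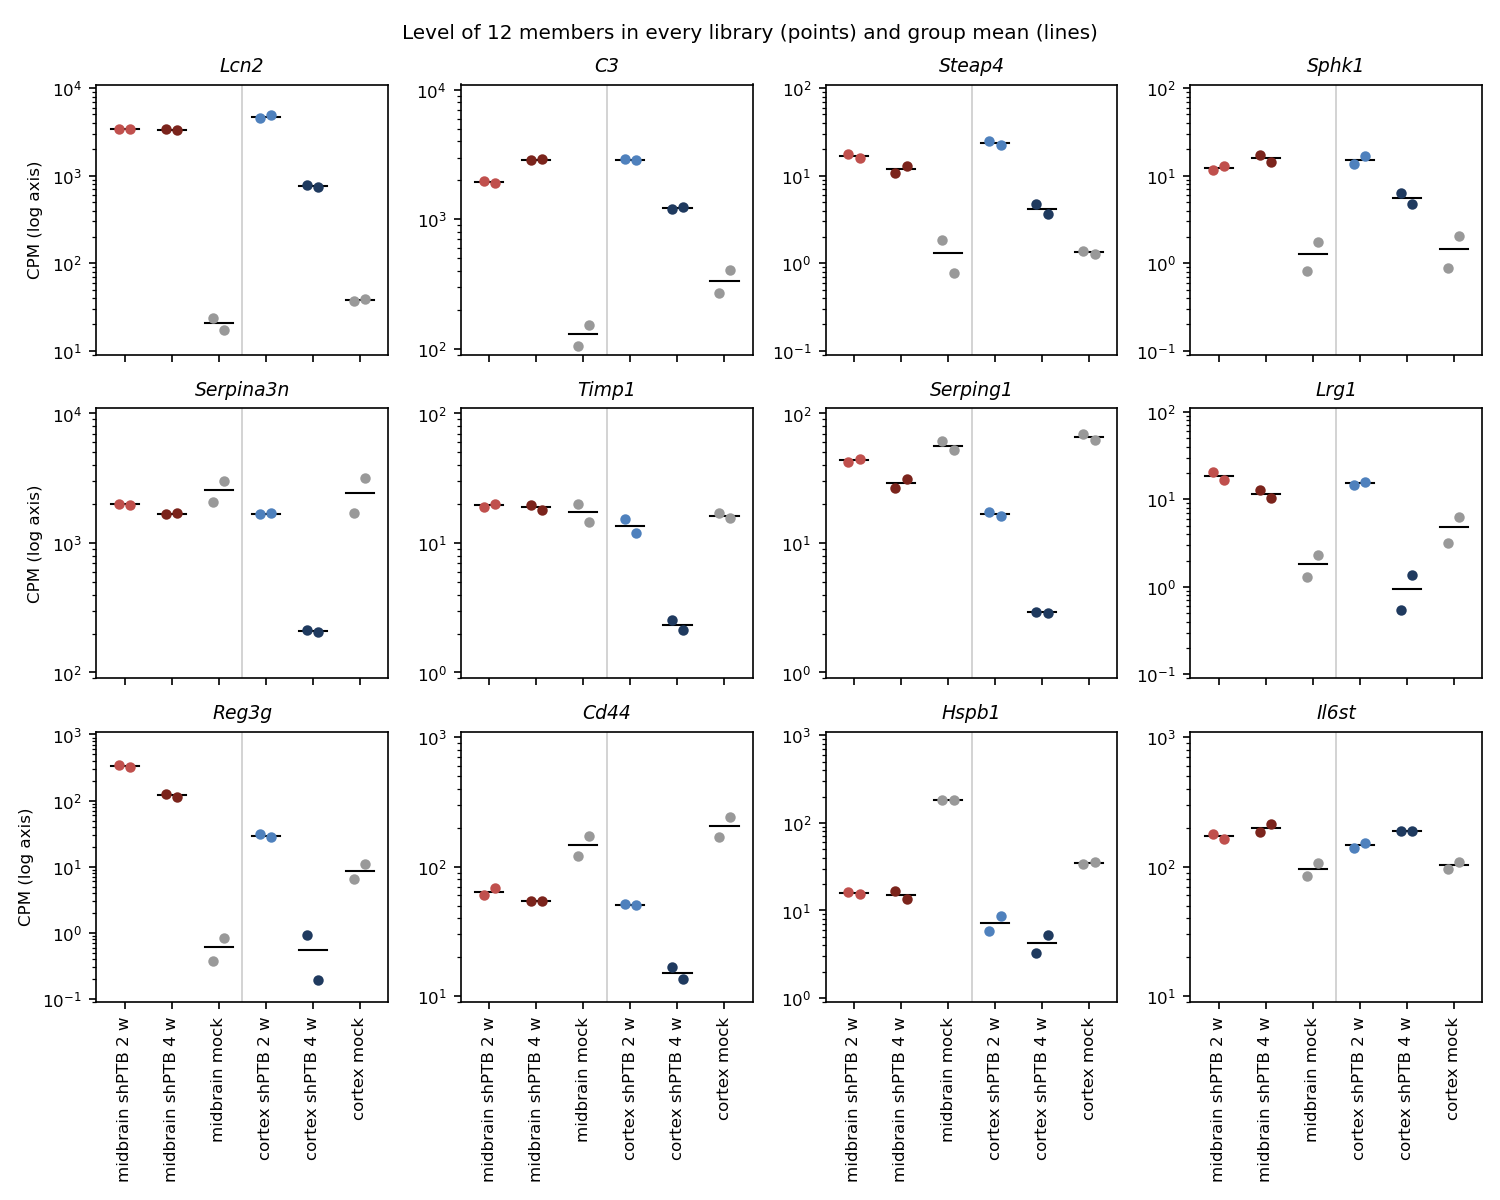
Level of 12 members in CPM on a log axis in each library (points, 2 per group) with the group mean (line); midbrain groups are left of the grey line and cortex groups right of it. Lcn2, C3, Steap4 and Sphk1 are higher in every shPTB group than in mock, while Serpina3n, Timp1, Serping1 and Cd44 are lowest in cortex shPTB at 4 weeks.

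A further 5 members rose in all 4 shPTB groups: Steap4, Aspg, Sphk1, Clcf1 and, depending on the scaling, Il6st. Steap4, a metalloreductase gene induced by inflammatory cytokines, had 17.8 and 16 CPM in midbrain shPTB at 2 weeks and 10.8 and 13 CPM at 4 weeks, against 1.84 and 0.77 CPM in mock. Its cortex shPTB levels were 24.7 and 22.4 CPM at 2 weeks and 4.76 and 3.65 CPM at 4 weeks, against 1.39 and 1.27 CPM in mock. Its rise in cortex at 4 weeks (1.64 ± 0.37, adjusted p = 0.00476) was lost without cortex 4-week library 1 (1.43, adjusted p = 0.0539) and with scaling to total reads (0.55, adjusted p = 0.281).

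Aspg, an asparaginase-family gene, had 219 and 202 CPM in midbrain shPTB at 2 weeks and 434 and 391 CPM at 4 weeks, against 17 and 24.1 CPM in mock. Cortex shPTB cultures had 88.2 and 90.4 CPM at 2 weeks and 50.2 and 46.1 CPM at 4 weeks, against 2.85 and 6.76 CPM in mock. The shPTB libraries of each region stood apart from its mock libraries, with changes from 3.35 to 4.33. Sphk1, which encodes a kinase that makes the lipid signal sphingosine-1-phosphate, had 11.5 and 12.8 CPM in midbrain shPTB at 2 weeks and 17.3 and 14.3 CPM at 4 weeks, against 0.814 and 1.73 CPM in mock. Its cortex shPTB levels were 13.7 and 16.6 CPM at 2 weeks and 6.41 and 4.80 CPM at 4 weeks, against 0.871 and 2.07 CPM in mock. It rose by 1.97 ± 0.43 in cortex at 4 weeks (adjusted p = 0.00392) and by 3.27 to 3.64 in the other 3 comparisons.

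A ligand of the interleukin-6 family rose in all 4 comparisons, and the shared receptor subunit rose with TMM scaling but not with scaling to total reads. Clcf1, whose product is a gp130 ligand, had 6.73 to 7.90 CPM in midbrain shPTB against 1.57 and 1.73 CPM in mock, and 4.03 to 6.98 CPM in cortex shPTB against 0.639 and 1.03 CPM in mock. Its changes ran from 2.08 ± 0.31 to 2.86 ± 0.35. Il6st, which encodes gp130, had 178 and 163 CPM in midbrain shPTB at 2 weeks and 185 and 215 CPM at 4 weeks, against 85.2 and 106 CPM in mock. In cortex shPTB it reached 140 and 153 CPM at 2 weeks and 190 and 189 CPM at 4 weeks, against 96.3 and 109 CPM in mock. These rises were small (0.52 ± 0.18 to 1.06 ± 0.18). With scaling to total reads none passed, and those in cortex changed sign (-0.21 and -0.19). With the transcript length offset those in cortex also changed sign (-0.49 and -0.30, adjusted p = 0.311 and 0.52), and that in midbrain at 2 weeks was not called (0.80, adjusted p = 0.115). The call in cortex at 2 weeks (adjusted p = 0.0433) was lost in 14 of 24 alternatives, leaving out cortex mock library 1 (0.42, adjusted p = 0.143) or either cortex 2-week library (0.57 and 0.45, adjusted p = 0.121 and 0.227) among them. The call in midbrain at 2 weeks (0.83 ± 0.18, adjusted p = 0.00518) was lost without midbrain 2-week library 1 (0.76, adjusted p = 0.0575).

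Stat3, Socs3 and Osmr, which belong to the same route, were not raised in any comparison with mock that passed the test. Stat3 had 24.6 and 34.2 CPM in midbrain shPTB at 2 weeks and 27.1 and 30 CPM at 4 weeks, against 40.4 and 23 CPM in mock, and 19.8 to 30.7 CPM in cortex shPTB against 41.1 and 18.7 CPM in mock. The mock libraries spanned the shPTB levels, and no comparison with mock was called (-0.54 to -0.03, adjusted p of 0.263 and above). Socs3, the feedback inhibitor, had 1.1 and 2.11 CPM in cortex shPTB at 4 weeks against 6.74 and 4.93 CPM in cortex mock and fell there (-1.87 ± 0.41, adjusted p = 0.00419), a call lost without cortex 4-week library 1 (-1.47, adjusted p = 0.0549). Its other 3 changes ran from -0.85 to -0.46 and were not called. Osmr, the oncostatin M receptor gene, had 20.6 and 19 CPM in midbrain shPTB at 2 weeks and 15.9 and 15.4 CPM at 4 weeks, against 21.7 and 16.4 CPM in mock. Cortex shPTB libraries gave 16.7 and 11.5 CPM at 2 weeks and 4.94 and 4.42 CPM at 4 weeks, against 28.4 and 22.1 CPM in mock. In cortex it fell by 4 weeks (-2.43 ± 0.26, adjusted p = 4.16e-05). Its smaller fall there by 2 weeks (-0.85 ± 0.23, adjusted p = 0.0162) was lost without cortex mock library 1 (-0.67, adjusted p = 0.0779) or cortex 2-week library 2 (-0.61, adjusted p = 0.156).

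For Serpina3n and Timp1, the change in cortex at 4 weeks was the 1 called among the 4 comparisons with mock. Serpina3n, a serine protease inhibitor gene used as a marker of reactive astrocytes (chromosome 12, 104406729 to 104414329, plus strand), had 2016 and 1978 CPM in midbrain shPTB at 2 weeks and 1681 and 1695 CPM at 4 weeks, against 2086 and 3000 CPM in mock. Levels in cortex shPTB were 1665 and 1691 CPM at 2 weeks but 212 and 205 CPM at 4 weeks, against 1707 and 3198 CPM in mock. All shPTB libraries lay below both mock libraries of their region. In midbrain and in cortex at 2 weeks, the gap to the nearer mock library was smaller than that between the mock replicates. Only the fall in cortex at 4 weeks was called (-3.56 ± 0.31, adjusted p = 1.05e-05). The other 3 changes, -0.59 to -0.35, were not called, with adjusted p from 0.122 to 0.376.

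Timp1, an inhibitor of matrix metalloproteinases (chromosome X, 20870166 to 20874735, plus strand), had 18.9 and 20.1 CPM in midbrain shPTB at 2 weeks and 19.6 and 17.9 CPM at 4 weeks, against 19.9 and 14.5 CPM in mock. In cortex shPTB it had 15.2 and 12 CPM at 2 weeks and 2.56 and 2.11 CPM at 4 weeks, against 16.9 and 15.5 CPM in mock. Levels in cortex at 4 weeks were lower than in every other library, and that change alone was called (-2.79 ± 0.26, adjusted p = 1.74e-05), though not with an offset for transcript length (-0.78, adjusted p = 0.0692). Serping1, the complement C1 inhibitor gene (chromosome 2, 84765387 to 84775444, minus strand), had 42.4 and 44.7 CPM in midbrain shPTB at 2 weeks and 26.4 and 31.2 CPM at 4 weeks, against 60.8 and 51.9 CPM in mock. Its cortex shPTB levels were 17.2 and 16.2 CPM at 2 weeks and 2.93 and 2.88 CPM at 4 weeks, against 69.3 and 61.9 CPM in mock. It fell at both times in cortex (-1.97 ± 0.18 and -4.49 ± 0.22, adjusted p = 1.74e-05 and 2.94e-07) and at 4 weeks in midbrain (-0.97 ± 0.17, adjusted p = 0.0012). The midbrain call was lost with the length offset (-0.03, adjusted p = 0.914).

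Cp, which encodes the copper-carrying ferroxidase ceruloplasmin, had 146 and 150 CPM in midbrain shPTB at 2 weeks and 109 and 112 CPM at 4 weeks, against 67.9 and 79.8 CPM in mock. Cortex shPTB cultures had 52.2 and 52.7 CPM at 2 weeks and 12.6 and 8.65 CPM at 4 weeks, against 37.6 and 52.6 CPM in mock. It rose in midbrain at 2 weeks (1.0 ± 0.21, adjusted p = 0.0045) and fell in cortex at 4 weeks (-2.08 ± 0.23, adjusted p = 5.43e-05). Its rise in midbrain at 2 weeks was not called with scaling to total reads (0.34, adjusted p = 0.103). Its rise in midbrain at 4 weeks (0.59 ± 0.21, adjusted p = 0.0457) passed narrowly and changed sign with scaling to total reads (-0.28, adjusted p = 0.16) and with the length offset (-0.21, adjusted p = 0.342). It was lost in 15 of 24 alternatives, among them the fits without midbrain mock library 1 (0.46, adjusted p = 0.187) or either midbrain 4-week library (0.61 and 0.56, adjusted p = 0.15 and 0.183).

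Reg3g and Lrg1 rose in midbrain at both times and fell below mock in cortex at 4 weeks. Reg3g, an antibacterial lectin gene that STAT3 raises in mouse gut (chromosome 6, 78466269 to 78468872, minus strand), had 345 and 319 CPM in midbrain shPTB at 2 weeks and 128 and 115 CPM at 4 weeks, against 0.38 and 0.835 CPM in mock. In cortex shPTB it reached 30.9 and 27.8 CPM at 2 weeks and 0.916 and 0.192 CPM at 4 weeks, against 6.45 and 10.9 CPM in mock. The 4-week cortex libraries held 5 reads and 1 read of it, while the 4-week midbrain libraries held 926 and 860 reads. The changes were 9.10 ± 0.44 and 7.65 ± 0.42 in midbrain (adjusted p = 3.28e-07 and 4.34e-07) and 1.76 ± 0.31 and -3.91 ± 0.51 in cortex (adjusted p = 0.00143 and 0.000153).

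Lrg1, which encodes a leucine-rich plasma glycoprotein, had 20.7 and 16.4 CPM in midbrain shPTB at 2 weeks and 12.8 and 10.3 CPM at 4 weeks, against 1.30 and 2.31 CPM in mock. Cortex shPTB libraries gave 14.6 and 15.9 CPM at 2 weeks and 0.549 and 1.35 CPM at 4 weeks, against 3.20 and 6.36 CPM in mock. The groups did not overlap in either region. Its changes were 3.37 ± 0.39 and 2.68 ± 0.39 in midbrain (adjusted p = 9.55e-05 and 0.000365) and 1.69 ± 0.36 and -2.31 ± 0.52 in cortex (adjusted p = 0.00451 and 0.00471). The fall in cortex was not called without cortex 4-week library 1 (-1.81, adjusted p = 0.0624).

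C4b, a complement component, had 61 and 59.6 CPM in midbrain shPTB at 2 weeks and 119 and 119 CPM at 4 weeks, against 137 and 82.6 CPM in mock. Levels in cortex shPTB were 34.3 and 37.5 CPM at 2 weeks and 15.6 and 14 CPM at 4 weeks, against 62.3 and 40.1 CPM in mock. Its fall in cortex at 4 weeks was called (-1.79 ± 0.28, adjusted p = 0.000473). Its fall in midbrain at 2 weeks (-0.86 ± 0.26, adjusted p = 0.0255) was a call that ended without midbrain mock library 1 (-0.46, adjusted p = 0.201) or either midbrain 2-week library (-0.88 and -0.85, adjusted p = 0.118 and 0.131). These values are uncertain, since 65.3% of the 31-base words at the 3′ end (500 bases) of the transcript with most of its reads also occur in its near copy C4a, and 99.7% of its reads were assigned to a transcript annotated as a retained intron.

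Cd44, Cd109 and Hspb1 fell in all 4 comparisons with mock. Cd44, a receptor for hyaluronan, had 60.7 and 67.8 CPM in midbrain shPTB at 2 weeks and 54.4 and 54.4 CPM at 4 weeks, against 121 and 172 CPM in mock. In cortex shPTB it had 51.3 and 50.5 CPM at 2 weeks and 16.8 and 13.5 CPM at 4 weeks, against 170 and 242 CPM in mock. All shPTB libraries lay below mock, and the changes were -1.19 ± 0.23 and -1.43 ± 0.23 in midbrain and -2.02 ± 0.23 and -3.77 ± 0.26 in cortex at 2 and 4 weeks. Cd109, which encodes a membrane co-receptor of TGF-beta, had 27.8 and 29.1 CPM in midbrain shPTB at 2 weeks and 36.2 and 37.4 CPM at 4 weeks, against 87.7 and 82.7 CPM in mock. In cortex shPTB it had 33.9 and 32.9 CPM at 2 weeks and 20.9 and 22.3 CPM at 4 weeks, against 52.1 and 70.9 CPM in mock. The groups did not overlap, and its 4 falls ran from -1.58 to -0.88.

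Hspb1, the gene of the small heat-shock protein HSP25, had 16.2 and 15.3 CPM in midbrain shPTB at 2 weeks and 16.6 and 13.5 CPM at 4 weeks, against 181 and 183 CPM in mock. Its cortex shPTB levels were 5.80 and 8.60 CPM at 2 weeks and 3.30 and 5.19 CPM at 4 weeks, against 33.8 and 35.6 CPM in mock. The falls were -3.53 ± 0.23 and -3.60 ± 0.23 in midbrain and -2.26 ± 0.24 and -3.03 ± 0.26 in cortex, but those in cortex were not called with the transcript length offset (-0.41 and -0.74, adjusted p = 0.355 and 0.111). In addition, 60.0% of the words at its 3′ end also occur in the pseudogene Hsp25-ps1. Tm4sf1, a tetraspanin-like membrane gene, had 11.7 and 16.2 CPM in midbrain shPTB at 2 weeks and 12 and 14.7 CPM at 4 weeks, against 11.9 and 20.3 CPM in mock. Cortex shPTB cultures had 6.18 and 8.93 CPM at 2 weeks and 2.38 and 2.31 CPM at 4 weeks, against 16.3 and 27.5 CPM in mock. It fell in cortex at both times (-1.53 ± 0.35 and -3.21 ± 0.41, adjusted p = 0.00598 and 0.000123). The call at 2 weeks ended without cortex 2-week library 1 (-1.30, adjusted p = 0.0671), and the midbrain changes (-0.21 and -0.27) were not called.

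Ggta1, which encodes a galactosyltransferase, had 26 and 28 CPM in midbrain shPTB at 2 weeks and 20.6 and 22.8 CPM at 4 weeks, against 20.5 and 35.8 CPM in mock. In cortex shPTB it reached 20 and 20.3 CPM at 2 weeks and 8.61 and 11.5 CPM at 4 weeks, against 23.2 and 37 CPM in mock. Its fall in cortex at 4 weeks was the sole called change (-1.58 ± 0.31, adjusted p = 0.00215). Srgn, a proteoglycan gene of secretory granules, fell in all 4 comparisons (0.402 to 1.62 CPM in shPTB libraries against 2.44 to 4.01 CPM in mock). Its calls at 2 weeks ended without cortex mock library 1, cortex 2-week library 1, midbrain mock library 2 or either midbrain 2-week library (adjusted p from 0.0692 to 0.213). The call in midbrain at 4 weeks ended without midbrain 4-week library 2 (-2.33, adjusted p = 0.0503).

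Tgm1, a transglutaminase gene, had 0.339 to 0.967 CPM in midbrain shPTB libraries against 4.99 and 4.88 CPM in mock, and it was at least 8.23-fold lower in cortex shPTB at 4 weeks, where it had 0 reads, than in mock. Emp1, which encodes an epithelial membrane protein, was at least 14.8-fold lower in cortex shPTB at 4 weeks than in mock, and 23.9-fold lower at 2 weeks (exact 95% interval 6.49 to 200), where it had 2 reads. In midbrain shPTB it had 0.138 to 0.552 CPM, against 4.45 and 3.40 CPM in mock, and its call at 2 weeks ended without midbrain 2-week library 1 (-2.81, adjusted p = 0.0516). B3gnt5, a glycosyltransferase gene, had 0 reads in midbrain shPTB at 4 weeks against 15 and 6 reads in midbrain mock, and 0 reads in both cortex shPTB groups against 25 and 7 reads in cortex mock. The bounds of Tgm1 and Emp1 rest on 3 reads over a group. The B3gnt5 calls in cortex ended without cortex mock library 1 or either shPTB library compared (-6.42 to -5.40). That in midbrain at 4 weeks ended without mock library 1 of either region or any 1 of the 8 shPTB libraries (-5.67 to -4.87). DESeq2 made none of these calls (adjusted p = 0.0657 and 0.0663 in cortex at 2 and 4 weeks and 0.0889 in midbrain). The length offset made none either (edgeR adjusted p = 0.0654, 0.0715 and 0.086 in the same order).

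No comparison with mock was called for 5 tested members. S1pr3, a sphingosine-1-phosphate receptor gene, had 71.7 to 170 CPM in shPTB libraries and 75.6 to 130 CPM in mock libraries. Cxcl10, an interferon-induced chemokine gene, had 0.192 to 1.54 CPM in shPTB and 0.232 to 0.542 CPM in mock libraries, with changes of 0.68 to 1.89 and adjusted p from 0.0707 to 0.558. Amigo2, an adhesion gene used as an A1 marker, had 1.15 to 4.30 CPM in shPTB and 1.35 to 2.18 CPM in mock libraries. H2-T23, a non-classical MHC class I gene, had 61 and 54.4 CPM in cortex shPTB at 4 weeks against 1.28 and 18.7 CPM in cortex mock, and 19.2 and 27.2 CPM in midbrain shPTB at 4 weeks against 0.434 and 16.6 CPM in midbrain mock. Its mock replicates disagreed and 66.0% of the words at its 3′ end occur in other genes, so its values are uncertain. The 4 members that were not tested had at most 12 reads in any library.

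By class, 4 of 11 pan-reactive genes rose and 2 fell in midbrain at 4 weeks, and 3 rose and 6 fell in cortex at 4 weeks, with medians of 0.21 and -2.08, where 39.2 and 39.4% of all tested genes were called. At 2 weeks 4 rose and 2 fell in midbrain and 3 rose and 3 fell in cortex. The medians were then 0.65 and 0.20, where 30.6 and 35.0% of all tested genes were called. None of the 5 tested A1 genes of this list rose in any comparison with mock, and 1 to 3 fell. This holds only for the genes that the list puts in that class. C3, often used to mark A1-type astrocytes but counted here with the acute-phase genes, rose in all 4 comparisons. Published reactive genes left out of the list, Gbp2, H2-D1 and Fbln5 among them, rose in some or all comparisons, as given below. Of the 7 tested A2 genes, Clcf1 and Sphk1 rose in all 4 comparisons and 3 to 5 fell. Of the 7 acute-phase and STAT3 genes, 4 rose and 0 fell in midbrain at 4 weeks, while 2 rose and 4 fell in cortex at 4 weeks, with medians of 1.06 and -1.79. The regions were more alike in this class at 2 weeks, when 4 rose and 1 fell in midbrain and 4 rose and 0 fell in cortex (medians 0.83 and 0.52). Classes of 5 to 11 genes are small, and some of these counts, such as 2 of 5 A1 genes called in midbrain at 4 weeks, are close to the share over all genes.

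Markers of other cells moved with the same groups. The 18 microglia markers, all detected in mock, summed to 122 to 160 CPM in midbrain shPTB against 1859 and 2396 CPM in mock. They summed to 91.4 to 203 CPM in cortex shPTB against 1776 and 2471 CPM in mock, with Ctss and Itgam at 0 in midbrain at 4 weeks. Of the 18, 16 fell in each comparison, and 1 rose at 2 weeks in each region. The 12 fibroblast and pericyte markers summed to 326 and 341 CPM in midbrain shPTB at 2 weeks and 245 and 256 CPM at 4 weeks, against 2111 and 2222 CPM in mock. In cortex shPTB they summed to 121 and 120 CPM at 2 weeks and 51.6 and 54.6 CPM at 4 weeks, against 831 and 857 CPM in mock, with Col3a1 and Kcnj8 at 0 at 4 weeks. Not all of them fell: of 11 tested, 4 rose and 5 fell in midbrain at 2 weeks, 4 and 6 in midbrain at 4 weeks, 4 and 6 in cortex at 2 weeks, and 2 and 6 in cortex at 4 weeks. The 10 ependymal and choroid markers summed to 107 and 109 CPM in midbrain shPTB against 20 and 23.6 CPM in cortex shPTB at 4 weeks, beside 159 to 230 CPM in mock of either region. Of 9 tested, 4 rose and 5 fell in midbrain at 2 weeks, 3 and 5 in midbrain at 4 weeks, and 1 and 6 in cortex at each time. The 10 endothelial markers summed to 25.3 to 57.3 CPM in all libraries, with Tek at 0 throughout. The 12 oligodendrocyte markers summed to 233 to 272 CPM in midbrain shPTB against 247 and 291 CPM in mock and to 428 to 469 CPM in cortex shPTB against 165 and 188 CPM in mock. The part of these cells in the members' changes was not tested.

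Setting the regions side by side at 4 weeks, 18 of 30 members were higher in midbrain shPTB than in cortex shPTB and 0 were lower, where 7.99% of all genes were called (5.48% higher, 2.51% lower). The median difference of the tested members was 1.62, beside -0.01 over all genes, or 1.49 with genes at 0 reads set to their bounds. The largest differences were those of Reg3g (7.73 ± 0.47, adjusted p = 1.58e-05), Lrg1 (3.61 ± 0.50, adjusted p = 0.00116), Cp (3.38 ± 0.24, adjusted p = 3.04e-05), Serping1 (3.30 ± 0.22, adjusted p = 2.6e-05) and Aspg (3.10 ± 0.32, adjusted p = 0.000206), apart from Tgm1, which was at least 2.42-fold higher. Calls for C3, Cd109, Sphk1, Steap4, Tgm1 and Tm4sf1 ended when single 4-week libraries were left out, as did those of Cd109, Sphk1 and Tgm1 without single 2-week libraries (adjusted p from 0.0501 to 0.257).

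At 2 weeks 4 of 30 members were higher in midbrain shPTB than in cortex shPTB and 0 lower (2.94% of all genes called, 2.01% higher and 0.931% lower): Reg3g (3.50 ± 0.32, adjusted p = 0.000454), Cp (1.49 ± 0.22, adjusted p = 0.00428), Serping1 (1.38 ± 0.18, adjusted p = 0.00218) and Hspb1 (1.12 ± 0.24, adjusted p = 0.0323). The count of called members was 2, 1 and 2 without cortex 2-week library 1, cortex 2-week library 2 or midbrain 2-week library 2, 18 when the fit held only the groups compared, 18 and 18 without both mock libraries numbered 1 or both numbered 2, and 16 with a term for the number among mock libraries. Between mock cultures, midbrain was higher for Hspb1 (2.39) and Aspg (2.11) and lower for C3 (-1.37) and Reg3g (-3.83), 4 of 30 members (2.19% of all genes called, 1.25% higher and 0.938% lower). The call of C3 ended without midbrain mock library 1 (-1.12, adjusted p = 0.0787). The count of called members was 7 without cortex mock library 1, 0 when only the mock groups were fitted, 9 and 12 without both mock libraries numbered 1 or both numbered 2, and 13 with a term for the number among mock libraries.

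Whether the regions differ in their response to shPTB was tested as the difference of the 2 changes from mock, midbrain minus cortex. A higher response in midbrain thus means a positive difference, which can come from a larger rise in midbrain or a larger fall in cortex. At 4 weeks 12 of 30 members had a higher response in midbrain and 0 a lower one, where 2.55% of all genes were called (1.90% higher, 0.644% lower). They were Reg3g (11.56 ± 0.62), Lrg1 (5.0 ± 0.64), Serping1 (3.52 ± 0.27), Lcn2 (3.02 ± 0.30), Serpina3n (2.96 ± 0.41), Tm4sf1 (2.95 ± 0.52), Timp1 (2.91 ± 0.34), Cp (2.66 ± 0.31), C3 (2.62 ± 0.35), Cd44 (2.34 ± 0.33), Osmr (2.14 ± 0.35) and C4b (1.91 ± 0.37), with adjusted p from 5.37e-06 to 0.0206. Among them, Serpina3n, Timp1, Osmr, Tm4sf1 and C4b fell in cortex at 4 weeks and were not called in midbrain against mock. Cd44 and Serping1 fell in both regions, and further in cortex. Lcn2 and C3 rose in both, and Reg3g, Lrg1 and Cp rose in midbrain and fell in cortex. The value for Reg3g rests on few reads in midbrain mock and in cortex shPTB at 4 weeks. At 2 weeks the difference was called for 2 members, Reg3g (7.33 ± 0.51, adjusted p = 0.000117) and Serping1 (1.60 ± 0.24, adjusted p = 0.0137), where 0.685% of all genes were called (0.424% higher, 0.260% lower). This count rests on the mock libraries: it was 13 and 12 without both numbered 1 or both numbered 2, and 14 with a term for the number among them. It was 5 with no filter on counts, and 1 scaled to total reads, with the length offset or with only the groups compared. At 4 weeks the count was 19 without both mock libraries numbered 1.

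**Figure D3:**
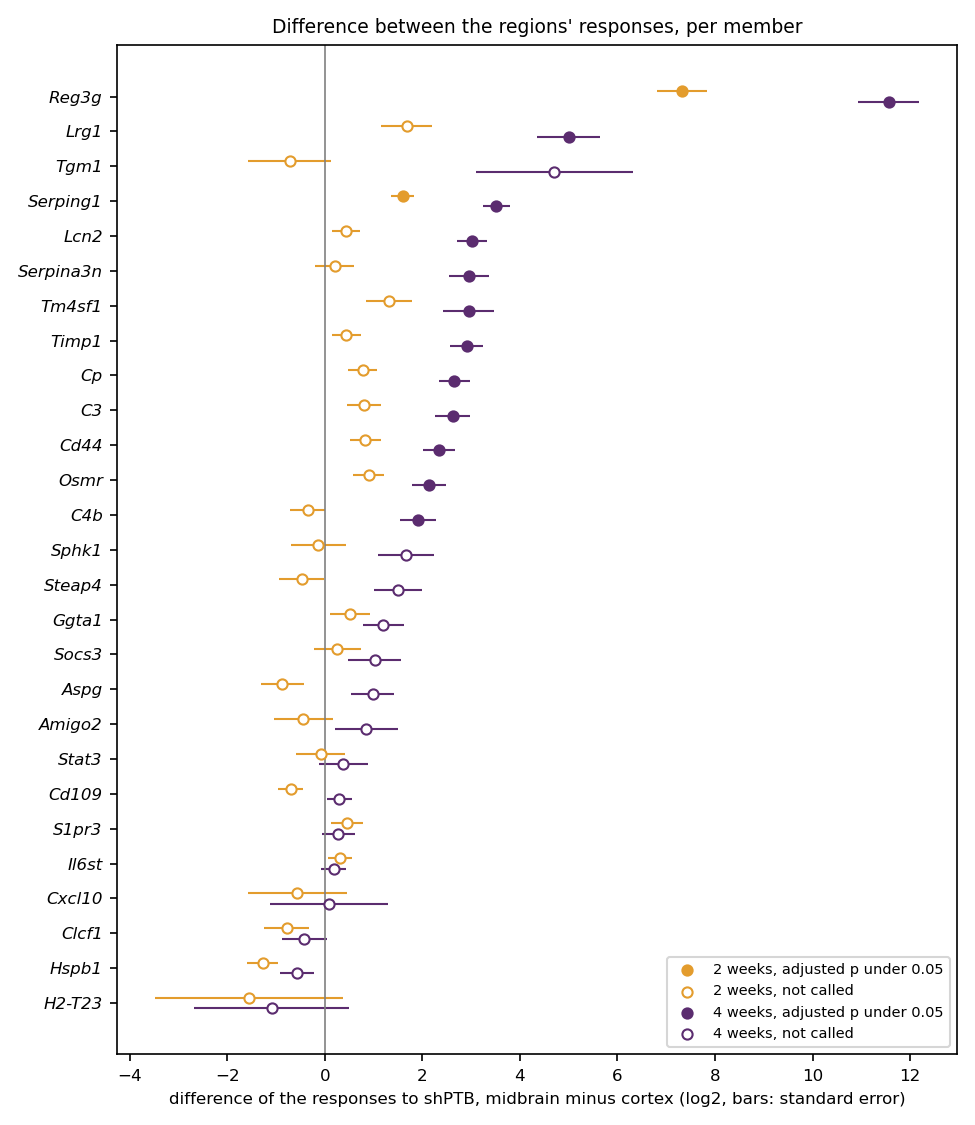
Difference of the changes from mock, midbrain minus cortex, on a log2 scale for 27 members at 2 weeks (orange) and 4 weeks (purple), with standard errors as bars; filled points passed edgeR at adjusted p under 0.05. At 4 weeks 12 members are filled and lie right of 0, and Srgn, Emp1 and B3gnt5 are left out because a standard error was over 2.

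In the same test Clcf1, Il6st, Stat3, S1pr3 and Cd109 had differences at 4 weeks between -0.42 and 0.38, with adjusted p of 0.747 and above, which does not show that they act alike in the regions. The calls at 4 weeks ended for Osmr without either cortex 4-week library (2.23 and 2.07, adjusted p = 0.0518 and 0.0617), for Tm4sf1 without either cortex 4-week library or midbrain 4-week library 2 (adjusted p from 0.067 to 0.0939), and for C4b without any 1 of the 4-week libraries (adjusted p from 0.0865 to 0.121). The call of Serping1 at 2 weeks ended without any 1 of the 2-week libraries (adjusted p from 0.0768 to 0.115).

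At 4 against 2 weeks in cortex, 12 of 30 members fell and 0 rose, where 2.77% of all genes were called (0.548% higher, 2.22% lower), and the median was -1.26 beside 0.00 over all genes. These were Reg3g (-5.67 ± 0.48), Lrg1 (-4.00 ± 0.50), Serpina3n (-3.01 ± 0.31), Lcn2 (-2.62 ± 0.21), Timp1 (-2.53 ± 0.27), Serping1 (-2.52 ± 0.22), Steap4 (-2.48 ± 0.32), Cp (-2.30 ± 0.24), Cd44 (-1.75 ± 0.24), Osmr (-1.58 ± 0.27), C4b (-1.28 ± 0.28) and C3 (-1.24 ± 0.25), with adjusted p from 0.000277 to 0.0363. Without cortex 4-week library 1 or 2 the count of called members was 6 and 7. The calls of C3 and C4b ended without any 1 of the 8 shPTB libraries, those of Cd44, Osmr and Steap4 without either cortex 4-week library, that of Osmr also without cortex 2-week library 1, and that of Lrg1 without cortex 4-week library 1. At 4 against 2 weeks in midbrain, Reg3g was the 1 member called (-1.45 ± 0.29, adjusted p = 0.0271), where 2.66% of all genes were called (0.958% higher, 1.70% lower). That call ended without any 1 of the 4 midbrain shPTB libraries (adjusted p from 0.18 to 0.262) or without either cortex 2-week library (adjusted p = 0.0697 for both). Both counts depend on the mock libraries, which the comparison over time does not use but which enter the shared estimate of spread. In cortex the count was 21 with only the groups compared, 22 and 22 without both mock libraries numbered 1 or both numbered 2, and 21 with a term for the number among mock libraries. In midbrain the same fits called 15, 14, 14 and 13 members. The difference between these time courses was not tested.

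Other genes of the same routes were read from lists that hold no member. Changes of genes outside the list of members are given with TMM scaling only. Small rises among them may not hold with scaling to total reads, where those of Il6st did not. Of 26 tested genes of the gp130, JAK and STAT route, 7 rose and 4 fell in midbrain at 2 weeks, 8 rose and 5 fell in midbrain at 4 weeks, 5 rose and 4 fell in cortex at 2 weeks, and 6 rose and 7 fell in cortex at 4 weeks. All tested genes were called at 30.6, 39.2, 35.0 and 39.4% in that order, so the route's count in cortex at 2 weeks (9 of 26) is near that share. Its median changes were 0.48, 0.36, 0.02 and -0.17 in the same order, beside -0.07, -0.15, -0.11 and -0.12 over all genes. Cebpd, the C/EBP factor gene named above, had 206 and 227 CPM in midbrain shPTB at 2 weeks and 182 and 201 CPM at 4 weeks, against 97.6 and 151 CPM in mock. Cortex shPTB libraries gave 128 and 133 CPM at 2 weeks and 32.1 and 23.3 CPM at 4 weeks, against 132 and 153 CPM in mock. It rose in midbrain at 2 weeks (0.80 ± 0.23, adjusted p = 0.0224) and stood low in cortex at 4 weeks (-2.36 ± 0.25 against mock, adjusted p = 3.42e-05; -2.24 ± 0.25 against 2 weeks, adjusted p = 0.000954), and its response at 4 weeks was higher in midbrain by 2.98 ± 0.34 (adjusted p = 0.000992).

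Cntf, a gp130 ligand that astrocytes make, fell in both regions, with 0.829 to 2.43 CPM in midbrain shPTB against 20.5 and 64.9 CPM in mock, and 0.325 to 1.68 CPM in cortex shPTB against 38.6 and 117 CPM in mock. Cntfr, its receptor gene, rose, with 103 to 135 CPM in midbrain shPTB against 13.6 and 18.1 CPM in mock, and 117 to 145 CPM in cortex shPTB against 15.2 and 24.4 CPM in mock. Its changes were 2.58 ± 0.25 to 3.02 ± 0.25. Socs2, a relative of Socs3, fell in all 4 comparisons with mock (-2.24 to -0.95). Il6 had 0 reads in all 12 libraries, and Osm had 0 reads in all but midbrain mock library 1.

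**Figure D4:**
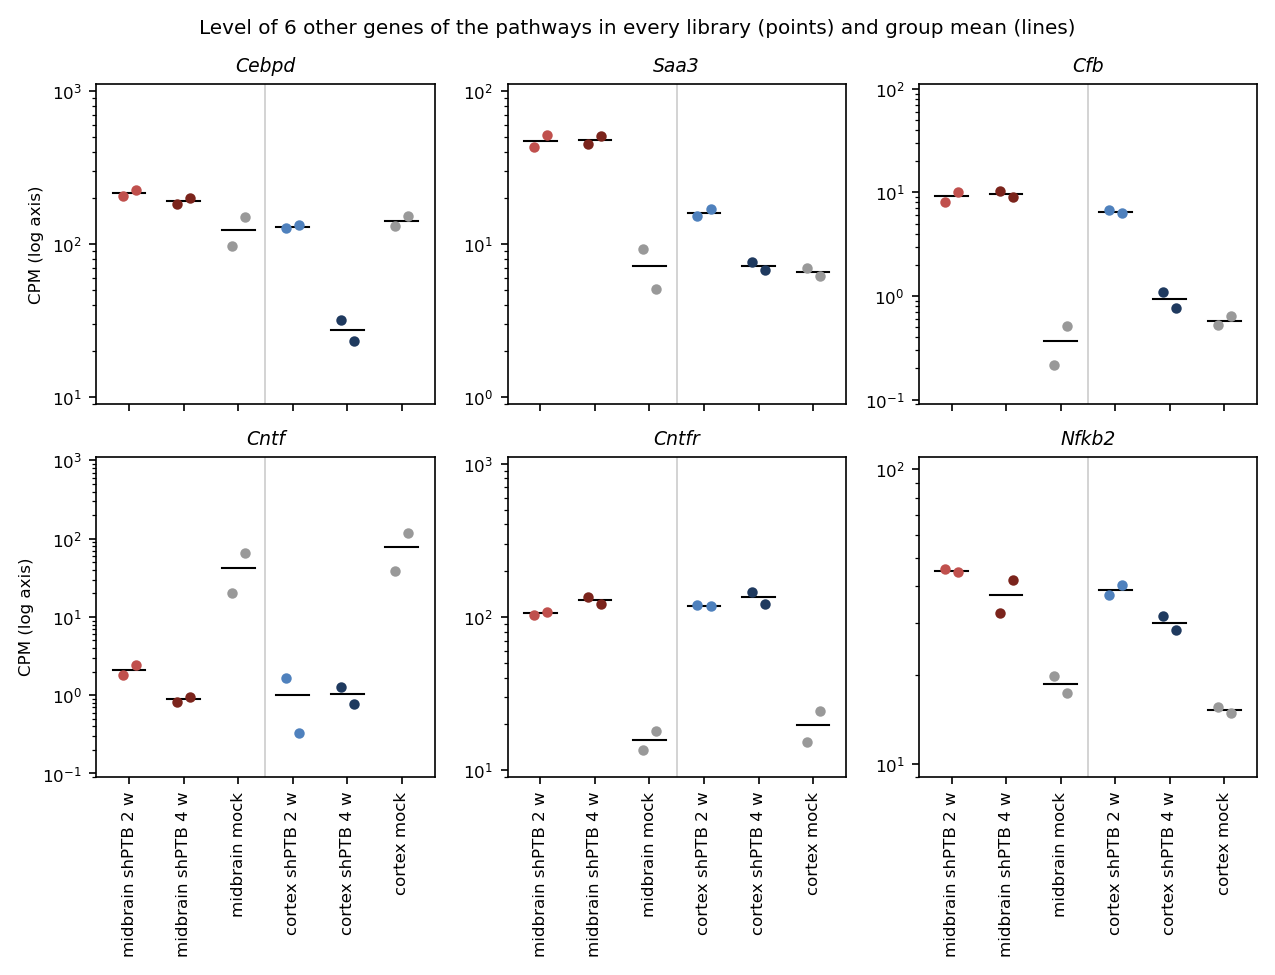
Level in CPM on a log axis of 6 genes outside the list in each library (points) with the group mean (line), midbrain groups left of the grey line and cortex groups right of it. Cebpd is low in cortex shPTB at 4 weeks (32.1 and 23.3 CPM), Saa3 is highest in midbrain shPTB, and Cntf is lower and Cntfr and Nfkb2 higher in every shPTB group than in mock.

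Among 16 tested genes of NF-kB signalling and its inducers, 3 rose and 0 fell in midbrain at 2 weeks, 3 rose and 1 fell in midbrain at 4 weeks, 4 rose and 0 fell in cortex at 2 weeks, and 2 rose and 4 fell in cortex at 4 weeks, with medians of 0.40, 0.15, -0.20 and -0.51. In each comparison this was no larger a share than over all tested genes (30.6, 39.2, 35.0 and 39.4% called). Nfkb2, an NF-kB subunit gene and itself a target of the pathway, rose in each with TMM scaling (0.98 ± 0.18 to 1.35 ± 0.18). Among 10 tested further acute-phase genes, 4 rose and 5 fell in midbrain at 4 weeks and 1 rose and 5 fell in cortex at 4 weeks, with medians of -0.48 and -1.34, where 39.2 and 39.4% of all tested genes were called. Itih3 (-5.22 to -3.46), Pros1 (-3.45 to -1.27) and Ctsc (-2.88 to -1.66) fell in all 4 comparisons with mock. A2m fell in cortex at 2 and 4 weeks (-3.19 ± 0.35 and -4.78 ± 0.41). Saa3, a serum amyloid A gene, had 42.9 and 51.4 CPM in midbrain shPTB at 2 weeks and 44.9 and 50.8 CPM at 4 weeks, against 9.28 and 5.07 CPM in mock. Levels in cortex shPTB were 15.2 and 16.9 CPM at 2 weeks and 7.69 and 6.73 CPM at 4 weeks, against 7.03 and 6.21 CPM in mock. It rose in midbrain at both times (2.71 ± 0.26 and 2.73 ± 0.27) and in cortex at 2 weeks (1.27 ± 0.27), and its response was higher in midbrain at 4 weeks by 2.61 ± 0.38 (adjusted p = 0.00442).

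Among 15 tested complement genes, 4 rose and 7 fell in midbrain at 4 weeks, and 1 rose and 10 fell in cortex at 4 weeks, with medians of -0.87 and -2.10, where 39.2 and 39.4% of all tested genes were called. C1qa, C1qb and C1qc, which encode the chains of C1q and are made mainly by microglia in brain, fell in all 4 comparisons (-7.83 to -4.52). Cfb, complement factor B, had 8.15 to 10.4 CPM in midbrain shPTB against 0.217 and 0.514 CPM in mock, and 6.74 and 6.33 CPM at 2 weeks and 1.1 and 0.769 CPM at 4 weeks in cortex shPTB against 0.523 and 0.636 CPM in mock. Its response at 4 weeks was higher in midbrain by 4.03 ± 0.61 (adjusted p = 0.00508). Cfb, Il6, Osm and Gfap lie outside the rule for named genes and were chosen after their values were seen.

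Of the published reactive genes that are not members, 9 were tested, with 5 that rose and 2 that fell in midbrain at 2 weeks, 5 and 1 in midbrain at 4 weeks, 5 and 1 in cortex at 2 weeks, and 1 and 1 in cortex at 4 weeks, against 30.6, 39.2, 35.0 and 39.4% of all tested genes called. Gfap, the classic astrocyte filament gene, had 6203 and 5822 CPM in midbrain shPTB at 2 weeks and 8510 and 8014 CPM at 4 weeks, against 9610 and 12580 CPM in mock. It had 12016 to 12720 CPM in cortex shPTB against 11107 and 19407 CPM in mock. It fell in midbrain at 2 weeks (-0.88 ± 0.29, adjusted p = 0.0375) and was not called elsewhere. Vim, the vimentin gene, fell in all 4 comparisons (-2.32 to -0.63). Gbp2, an interferon-induced GTPase gene, rose in midbrain at both times (1.47 ± 0.32 and 1.49 ± 0.32) and in cortex at 2 weeks (1.56 ± 0.32), and Fbln5, a matrix gene, rose in all 4 (0.97 ± 0.17 to 4.03 ± 0.19). H2-D1 also rose in midbrain at both times (1.36 ± 0.26 and 1.19 ± 0.26) and in cortex at 2 weeks (0.81 ± 0.26).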

How the data were processed

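RNA of 12 astrocyte culture libraries was sequenced, and per the submitters' processing notes reads were trimmed with cutadapt 2.3 and quantified with Salmon 0.14.1 against mm10, with DESeq2 also named. No annotation release is named by those notes or the labels. The authors deposited, per transcript, an estimated count (56.3% of values above 0 were not whole), a TPM value and an effective length. Here the deposited estimated counts were summed per gene over GENCODE mouse M21 identifiers (140137 of 140658 transcripts matched; the 521 others held 0.0547 to 0.129% of reads) and rounded to whole numbers. The deposited TPM and effective lengths, a quantity of another kind than counts, served only for a transcript length offset. That offset follows how reads were split among a gene's transcripts. Whether it suits a protocol that captures cDNA by its first primer was not tested.

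Genes were tested with edgeR 4.0.16 (limma 3.58.1, R 4.3.3), quasi-likelihood, TMM scaling, 1 model over all 6 groups and 11 comparisons, after filterByExpr (minimum count 10, minimum total 15), which left 14607 genes. P-values were Benjamini-Hochberg adjusted over these, with a threshold of 0.05. The fit has 6 residual degrees of freedom. It was also run on simulated counts with the same spread in all groups and few genes changed in a single group. That run therefore cannot show how the fit behaves with the noisier mock libraries or the many changes seen here. Members and lists were chosen with earlier results of these data known. Per-library values are given for members called in at least 1 of the 4 comparisons with mock that reach a mean of 10 CPM in at least 1 group, and for members whose regional responses differ. From each other list, at most 4 genes per comparison with the largest called change and a mean of 10 CPM in the higher group could be named.

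Bounds for groups with 0 reads rest on 3 reads over the group, and intervals are exact at 95%. Both cover counting error only, since PCR reads without molecular identifiers are not independent molecules. Alternatives were RLE size factors, scaling to total reads, DESeq2 1.42.0, no filter, a strict filter (5 CPM), the length offset, fits of only the groups compared, a replicate block, each library left out, and both mock libraries of 1 number left out. A block among mock libraries only and the removal of mitochondrial genes were chosen after seeing the data. Promoter sequences are from RefSeq (GRCm38.p6). Words shared between genes were counted as 31-base words in the last 500 bases of each member's most counted transcript.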

Additional observations from a re-analysis of the deposited data

Results flagged for a closer look

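The response to shPTB differed between midbrain and cortex for the members below, by the test of the difference itself (edgeR interaction, midbrain minus cortex). At 2 weeks the difference was 7.33 for Reg3g and 1.60 for Serping1. At 4 weeks it was 11.56 for Reg3g, 5.0 for Lrg1, 3.52 for Serping1, 3.02 for Lcn2, 2.96 for Serpina3n, 2.95 for Tm4sf1, 2.91 for Timp1, 2.66 for Cp, 2.62 for C3, 2.34 for Cd44, 2.14 for Osmr and 1.91 for C4b. For Lcn2 and C3 the shPTB levels stood above mock in both regions, and for Reg3g and Lrg1 the changes at 4 weeks had opposite signs in the regions. For Cp they did too, but its midbrain change turned negative scaled to total reads (-0.28) and with the length offset (-0.21), and its call was lost in 15 of 24 alternatives. Serpina3n, Timp1, Osmr, Tm4sf1 and C4b fell in cortex at 4 weeks and were not called in midbrain, and Cd44 and Serping1 fell in both.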

How the results depend on the processing

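Of 7812 alternative values of the members' changes, 7172 were counted as the same, 190 lost a call, 434 gained one and 16 changed sign with a call in either fit. Values counted as the same kept their side of the threshold. A change of sign where neither fit made a call is counted among them. The cause was not tested. The 16 changes of sign were as follows. Scaled to total reads, signs changed for Cp in cortex at 2 weeks (-0.48), Cp in midbrain at 4 weeks (-0.28), Il6st in cortex at 2 and 4 weeks (-0.21 and -0.19) and Timp1 in midbrain at 4 weeks (-0.77). With the length offset they changed for Timp1 (1.12), Cp (-0.65) and Il6st (-0.49) in cortex at 2 weeks, Il6st in cortex at 4 weeks (-0.30), Cp in midbrain at 4 weeks (-0.21) and Srgn between regions at 4 weeks (3.89). Without both mock libraries numbered 2 they changed for H2-T23 at 2 weeks in cortex (2.01) and midbrain (1.77), Ggta1 in midbrain at 2 weeks (0.40) and C4b in midbrain at 4 weeks (-0.20), and without both numbered 1 for Stat3 in cortex at 2 weeks (0.64).

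Counts of called members moved by over 1.5 times as follows. At 4 against 2 weeks in cortex (12 members) the count was 21 with only the groups compared, 22 and 22 without both mock libraries numbered 1 or 2, and 21 with a block among mock libraries. At 4 against 2 weeks in midbrain (1 member) it was 3 with DESeq2, 4 with no filter, 2 with the length offset, 15 with only the groups compared, 14 and 14 without both mock libraries, and 13 with the mock block. Between mock regions (4 members) it was 7 with no filter, 0 with only the groups compared, 9 and 12 without both mock libraries, and 13 with the mock block. Between regions at 2 weeks (4 members) it was 7 with no filter, 18 with only the groups compared, 18 and 18 without both mock libraries, and 16 with the mock block. The regional difference in response at 2 weeks (2 members) gave 1 scaled to total reads, 5 with no filter, 1 with the length offset, 1 with only the groups compared, 13 and 12 without both mock libraries, and 14 with the mock block, and that at 4 weeks (12 members) gave 19 without both mock libraries numbered 1.

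Leaving out 1 library gave 13 to 18 called members in midbrain at 2 weeks, 15 to 20 in midbrain at 4 weeks, 15 to 20 in cortex at 2 weeks and 21 to 27 in cortex at 4 weeks. It gave 6 to 16 at 4 against 2 weeks in cortex, 0 to 3 in midbrain, 4 to 7 between mock regions, 1 to 6 and 12 to 20 between regions at 2 and 4 weeks, and 1 to 3 and 9 to 14 for the difference in response. A lone library was then assumed to vary like the other groups. The labels do not say what a replicate number shares. For each gene, the deviation of library 1 from the mean of its group was taken on a log2 scale and correlated between groups. These deviations, not the levels, correlated at 0.897 between the mock groups, which deviate together across regions. Between other pairs of groups they correlated at -0.096 to 0.164. With the replicate block the counts of called members were 18 and 18 in midbrain, 19 and 26 in cortex, 13 and 2 at 4 against 2 weeks in cortex and midbrain, 5, 5 and 18 between regions (mock, 2 and 4 weeks), and 2 and 12 for the difference in response.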

Other observations

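A few genes of the other lists moved unlike the members. Fbln5, which encodes the elastic-fibre protein fibulin 5, was higher in midbrain mock than in cortex mock by 4.70 ± 0.20, and its response was lower in midbrain than in cortex at 2 weeks (-3.07 ± 0.25, edgeR adjusted p = 0.000204) and at 4 weeks (-2.26 ± 0.24, adjusted p = 0.000744). Vim fell further by 4 against 2 weeks in cortex (-1.18 ± 0.21, adjusted p = 0.0146), and its response did not differ between regions at the threshold (1.07 ± 0.29 at 4 weeks, adjusted p = 0.0988).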
